A study of Homo sapiens with 30 samples.

Results

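The respiratory chain is built from subunits of 2 genomes, and the mRNAs of both were followed during the differentiation of the human embryonic stem cell (hESC) line H7 to cardiomyocytes. Members were the entries of the time-course table with a name of a nuclear subunit (NDUFA, NDUFB, NDUFC, NDUFS and NDUFV, SDHA to SDHC, UQCR and CYC1, COX4 to COX8, ATP5) and no pseudogene ending, plus the 13 mRNAs of the mitochondrial genome. This gave 100 of 41495 entries. They were 73 common nuclear subunits (34 of complex I, 3 of complex II, 9 of complex III, 12 of complex IV and 15 of complex V), the 13 mitochondrial mRNAs, the muscle isoforms COX6A2 and COX7A1, and 6 other tissue isoforms or copies (COX4I2, COX6B2, COX7B2, COX8C, NDUFA4L2, ATP5L2). The remaining 6 share the name pattern without being subunits: ATP5S, ATP5SL, the readthrough entries ATP5J2-PTCD1 and NDUFC2-KCTD14, and the antisense entries NDUFA6-AS1 and NDUFB2-AS1. SDHD, NDUFB8 and NDUFA7 were left out because their values alternated between columns. NDUFB8, for example, was listed at 128.3 FPKM at D1, 1.54 at D2, 135.0 at D3 and 1.01 at D4. Of the 100 members 97 reached 1 FPKM in at least 1 column. COX7B2, COX8C and NDUFB2-AS1 did not.

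All samples came from the H7 line, an established cell line with no genetic change named in the labels, and RNA was depleted of ribosomal RNA before sequencing. The time course had 11 groups of 2 libraries: undifferentiated hESC, unsorted cells on days 1, 2, 3, 4, 5, 6, 8, 10 and 15 (D1 to D15), and day 31 cardiomyocytes purified on a Percoll gradient. Differentiation used 12 µM CHIR99021, which activates WNT signalling by inhibiting GSK3, for 24 hours, and then 5 µM IWP4, which blocks WNT secretion, for 2 days, in RPMI medium with B27 lacking insulin and later with complete B27. A further 4 groups of 2 libraries were sorted with antibodies: PMESO cells (ROR2-positive, D3) with their ROR2-negative counterpart, and CMESO cells (positive for ROR2 and PDGFRa, D4) with ROR2-positive, PDGFRa-negative cells. The only untreated group was hESC, and the D15 cells were not purified whereas the day 31 cells were.

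Oxidative phosphorylation moves electrons from NADH (complex I) or succinate (complex II) through complex III to oxygen at complex IV, and complex V uses the resulting proton gradient to make ATP. Complexes I, III, IV and V each combine nuclear subunits, made in the cytosol and imported, with a core encoded in mitochondrial DNA, whereas complex II is wholly nuclear. Mitochondrial mRNAs come from long transcripts of both strands of a circular genome that is present in many copies per cell. Heart muscle is rich in mitochondria, and complex IV of adult heart and skeletal muscle carries muscle isoforms of subunits 6A and 7A.

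The sequences upstream of an isoform pair are given first, because COX6A2 and COX6A1 encode the same position of complex IV and had different courses. Windows run from 250 bases before to 50 after the transcription start (RefSeq, GRCh38.p14), and capitals mark a motif found by letter search on both strands. The motifs searched were GCATGCGC (the core of an NRF1 site), CCGGAAG (ETS family, such as GABP), AAGGTCA (estrogen-related receptors), TATAAA (the box bound by TBP) and CAGCTG (an E-box), together with the MEF2 motif of 10 letters. In the muscle isoform the capitals mark TATAAA, an E-box and the loose MEF2 form. Its TATAAA begins at base 50 of the window of 300, well upstream of the transcription start. The free letters of its MEF2 match are AGAA. In the common isoform the capitals mark a pair of NRF1 motifs and an ETS motif, and in UQCRH, the subunit of complex III with the highest mean level, an ETS motif.
COX6A2 (chr16:31428311-31428610, minus strand): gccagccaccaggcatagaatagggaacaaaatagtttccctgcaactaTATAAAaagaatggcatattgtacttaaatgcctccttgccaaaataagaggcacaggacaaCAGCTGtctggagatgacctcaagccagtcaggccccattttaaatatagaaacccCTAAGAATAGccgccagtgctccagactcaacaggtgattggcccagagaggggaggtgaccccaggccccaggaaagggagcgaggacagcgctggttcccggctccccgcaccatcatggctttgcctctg
COX6A1 (chr12:120437863-120438162, plus strand): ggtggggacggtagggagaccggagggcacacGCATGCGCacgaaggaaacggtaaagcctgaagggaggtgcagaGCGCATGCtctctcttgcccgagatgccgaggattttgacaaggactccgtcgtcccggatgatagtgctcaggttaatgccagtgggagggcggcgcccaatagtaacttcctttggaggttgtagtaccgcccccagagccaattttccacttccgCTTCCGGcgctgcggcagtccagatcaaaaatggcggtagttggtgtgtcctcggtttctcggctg
UQCRH (chr1:46303448-46303747, plus strand): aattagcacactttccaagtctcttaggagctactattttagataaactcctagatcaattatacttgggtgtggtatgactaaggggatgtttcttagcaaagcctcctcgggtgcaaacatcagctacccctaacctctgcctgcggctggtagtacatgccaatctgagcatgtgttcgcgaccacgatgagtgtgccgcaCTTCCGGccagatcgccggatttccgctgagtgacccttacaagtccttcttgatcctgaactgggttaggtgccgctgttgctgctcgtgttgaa
Of the 73 common nuclear subunits 60 matched the promoter table, with 72 windows. The NRF1 motif was in 19.4% of these windows and in 3.05% of all 35116 windows, the ETS motif in 27.8% and 10.3%, and the AAGGTCA motif in 13.9% and 3.92%. TATAAA, at any position, was in 6.94% of the subunits' windows and in 11.5% of all windows, the E-box in 19.4% and 17.9%, and the loose MEF2 form in 1.39% and 2.73%. A match is a stretch of letters and not a measured binding site.

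The time-course table gives 1 value per gene and time point, taken here as FPKM (fragments per transcript length and library size) from the pipeline and the values since its header names no unit, so libraries cannot be told apart, no error can be given and no test was possible. Genes with a difference of 1 or more in log2(FPKM + 1), which is 2-fold, were counted as higher or lower, and the share of all 21715 genes kept that passed the same threshold is given beside each first count. Scaling between columns decides some of the nuclear results. Rescaling by the median ratio shifted the median of all genes between D15 and D10 by 0.22 on the log2 scale, and rescaling to an equal sum of nuclear protein-coding genes shifted it by 0.40 between cardiomyocytes and hESC. Counts held under the deposited values and both rescalings are therefore given as well. In bulk RNA, fewer cells of a type and less RNA per cell cannot be told apart. The summed level of 8 cardiomyocyte markers was 3572 FPKM at D10, 7707 at D15 and 11832 in cardiomyocytes. That of 5 stromal markers was 851.3 FPKM at D10, 3010 at D15 and 930.9 in cardiomyocytes. COL1A1 (732.9 FPKM at D15) and COL3A1 (2037) made up most of the stromal sum. In cardiomyocytes against D10, POSTN and COL3A1 were higher, and COL1A1, LUM and DCN lower. Of the cardiomyocyte markers, NKX2-5 alone was lower at D15 (42.2 FPKM) than at D10 (54.6).

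The 13 mitochondrial mRNAs were listed several times higher at D15 and in cardiomyocytes than at any time up to D10. Their summed FPKM was 6263 FPKM in hESC, 9672 at D1, 9387 at D2, 9506 at D3, 13097 at D4, 13115 at D5, 8628 at D6, 8542 at D8, 7604 at D10, 46985 at D15 and 55688 in cardiomyocytes. The sum stayed between 6263 and 13115 FPKM up to D10, and the step lay between D10 and D15. In the same 2 columns MT-RNR1, the small mitochondrial ribosomal RNA, was listed at 0 FPKM, against 18389 at D10. Whether the D15 and cardiomyocyte libraries were prepared and processed like the others is not given in the sources used here, and the part of any such difference in the step was not tested. All 13 mRNAs were at least 2-fold higher at D15 than at D10 (6.32% of all genes kept were), with a median log2 difference of 2.76. The ratio of D15 to D10 ran from 4.36 for MT-CO3 to 12.35 for MT-ND4. All 13 were also at least 2-fold higher in cardiomyocytes than at D10 (8.14% of all genes; median 3.12) and than in hESC (18.7% of all genes; median 3.27), under the deposited values and both rescalings. Between cardiomyocytes and D15 none passed 2-fold (7.23% of all genes were higher and 4.07% lower), and their median difference was 0.18 as deposited and turned to -0.16 and -0.20 under the rescalings. The mitochondrial mRNAs held 12.8% of the summed FPKM of protein-coding genes at D15 and 11.8% in cardiomyocytes, against 0.98% in hESC.

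**Figure D1:**
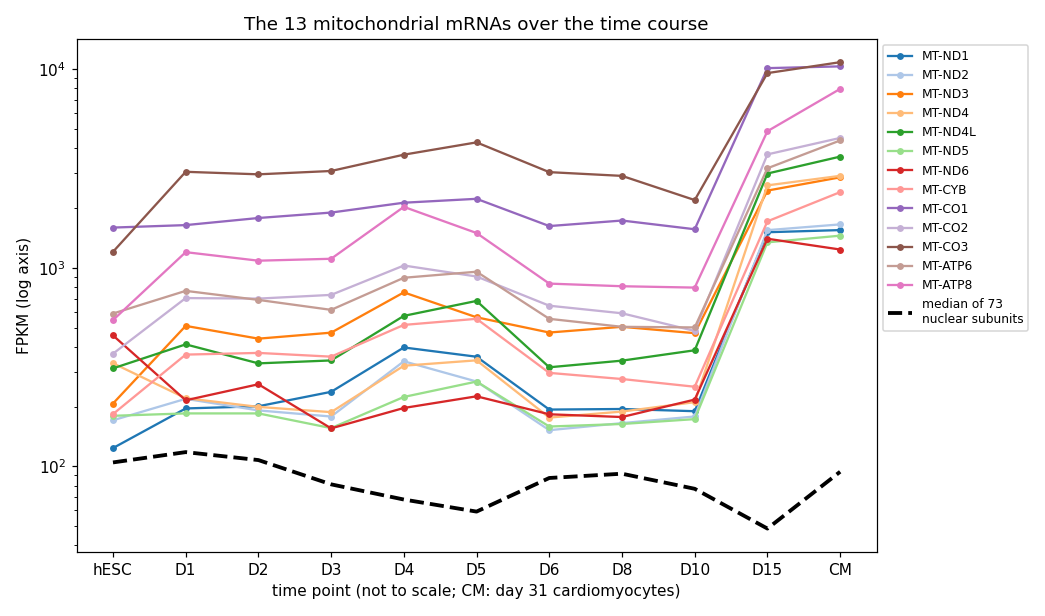
FPKM of the 13 mitochondrial mRNAs (coloured lines, log axis) and the median of the 73 nuclear subunits (dashed) at the 11 time points, each point 1 deposited value for 2 libraries. All 13 lines step up between D10 and D15, while the dashed line of deposited values is at its lowest at D15 (48.6 FPKM).

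MT-CO1 and MT-CO3 encode core subunits of complex IV and were the most abundant mitochondrial mRNAs in every column. MT-CO1, which carries the oxygen-binding centre, was listed at 1594 FPKM in hESC, 1640.0 at D1, 1781 at D2, 1897 at D3, 2126 at D4, 2224 at D5, 1622 at D6, 1729 at D8, 1563 at D10, 10121 at D15 and 10329.5 in cardiomyocytes. MT-CO3 was listed at 1203 FPKM in hESC, 3043 at D1, 2955 at D2, 3071 at D3, 3711 at D4, 4279.7 at D5, 3031 at D6, 2902 at D8, 2192 at D10, 9555 at D15 and 10844 in cardiomyocytes. MT-CO1 was the more abundant of the pair in hESC and at D15, and MT-CO3 in the other columns. MT-CO2, which receives electrons from cytochrome c, was at 4505 FPKM in cardiomyocytes and 3723 at D15, against 480.7 at D10.

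The ATP synthase mRNAs MT-ATP8 and MT-ATP6 overlap by 46 bases in different reading frames at chrM:8527-8572 (GRCh38; capitals mark the start codon of MT-ATP6 and the stop codon of MT-ATP8), so fragments there belong to both.
MT-ATP8 and MT-ATP6 overlap: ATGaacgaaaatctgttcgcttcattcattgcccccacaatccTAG
MT-ATP8, a small membrane subunit of complex V, was listed at 545 FPKM in hESC, 1198 at D1, 1086 at D2, 1109.9 at D3, 2026 at D4, 1496 at D5, 832 at D6, 807 at D8, 795 at D10, 4873 at D15 and 7956 in cardiomyocytes. Its cardiomyocyte level was 14.59 times that in hESC, the largest ratio of the 13. MT-ATP6, the subunit that forms the proton path with the c ring, was at 4375 FPKM in cardiomyocytes and 3170.0 at D15, against 500.8 at D10 and 588.2 in hESC. MT-ATP8 is short (207 bases), which makes its FPKM sensitive to the division by length.

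The 7 mitochondrial subunits of complex I form its proton-pumping membrane arm. MT-ND6 (chrM:14149-14673) is the only one of the 13 mRNAs on the minus strand of the reference. It was listed at 457 FPKM in hESC, 215 at D1, 259 at D2, 155 at D3, 197 at D4, 225 at D5, 183 at D6, 177 at D8, 217 at D10, 1400.3 at D15 and 1236 in cardiomyocytes. Its D1 level was 0.47 times that in hESC, which passed 2-fold as deposited (11.1% of all genes were 2-fold lower) but not after rescaling to the nuclear protein-coding sum. In cardiomyocytes it was 2.71 times its hESC level, the smallest ratio of the 13. MT-ND4 was listed at 331 FPKM in hESC, 220.5 at D1, 199 at D2, 188 at D3, 321 at D4, 342 at D5, 176 at D6, 189 at D8, 211 at D10, 2600.0 at D15 and 2904 in cardiomyocytes. It was 12.35 times as high at D15 as at D10, and as deposited it and MT-ND6 were lower at D1 than in hESC, with the other 11 mRNAs above it (9 of 13 above under the median ratio). The other 5 complex I mRNAs of mitochondrial DNA lay between 1451 (MT-ND5) and 3628 FPKM (MT-ND4L) in cardiomyocytes, against 172.9 (MT-ND5) to 468.5 (MT-ND3) at D10. MT-CYB, the only mitochondrial subunit of complex III and the site of quinone oxidation, was at 2404 FPKM in cardiomyocytes and 1714 at D15, against 251.7 at D10 and 183.3 in hESC. Whether reads were assigned by strand is not given in the sources used here, so reads of MT-ND6 cannot be told apart from antisense reads of the other strand.

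A smaller difference lay between D3 and D6. All 13 mitochondrial mRNAs were above their D3 value at D4, with a median difference of 0.54 and none at 2-fold (6.79% of all genes were; 1 and 6 of the 13 under the rescalings), and all 13 were below their D5 value at D6, with a median of -0.79 and 1 at 2-fold (6.18% of all genes; 2 and 7 under the rescalings). MT-ND1, for example, had 237.3 FPKM on D3, 396.9 FPKM on D4, 356.5 FPKM on D5 and 193.2 FPKM on D6. At D1 the median was 0.40 above hESC, and 3 of 13 were 2-fold higher (12% of all genes were), MT-CO3, MT-ND3 and MT-ATP8, of which the last was not under median-ratio rescaling.

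Of the other transcripts of the mitochondrial genome the table gives few usable values. MT-RNR1 was listed at 12774 (D1) to 30023 FPKM (hESC) up to D10 and at 0 at D15 and in cardiomyocytes. MT-RNR2 and all 22 mitochondrial tRNA entries were listed at 0 in every column, so these zeros can be failed estimates and do not show the level of these RNAs. MTRNR2L9, a nuclear copy of a mitochondrial ribosomal RNA segment, was at 579.6 FPKM at D15 and 570.0 in cardiomyocytes, against 143.9 at D10. Each of the 13 mitochondrial mRNAs has at least 1 pseudogene of its name in the nuclear genome (GENCODE 29). The part of these entries in the difference between D15 and D10 was not tested.

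The nuclear subunits took another course. Their summed FPKM was 13215 FPKM in hESC, 12658 at D1, 12278 at D2, 8929 at D3, 6811 at D4, 6026 at D5, 9232 at D6, 9220.4 at D8, 7513 at D10, 4676 at D15 and 9334 in cardiomyocytes. As deposited, the nuclear sum was thus highest in hESC, low at D5 and lowest at D15. Under the median ratio it was highest in hESC too (13143) and as low at D5 (6033) as at D15 (6054), whereas under the nuclear protein-coding sum it was highest in cardiomyocytes (10269, against 9563 in hESC) and lowest at D15 (6702, with 6936 at D5). The median subunit stood at 104.7 FPKM in hESC, 118.0 at D1, 59.2 at D5, 87.4 at D6, 48.6 at D15 and 94.0 in cardiomyocytes. Of the 73 subunits 26 had their highest value in hESC, 22 at D1, 10 at D2 and 11 in cardiomyocytes, and 49 had their lowest at D15 and 12 at D5. Under the nuclear protein-coding sum 28 were highest in cardiomyocytes and 11 in hESC, and under the rescalings 35 and 30 were lowest at D15. The sum of the 13 mitochondrial mRNAs was 0.474 times the nuclear sum in hESC, 2.18 times at D5, 1.01 times at D10, 10.0 times at D15 and 5.97 times in cardiomyocytes. This ratio is taken within a column and does not depend on the scaling between columns.

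**Figure D2:**
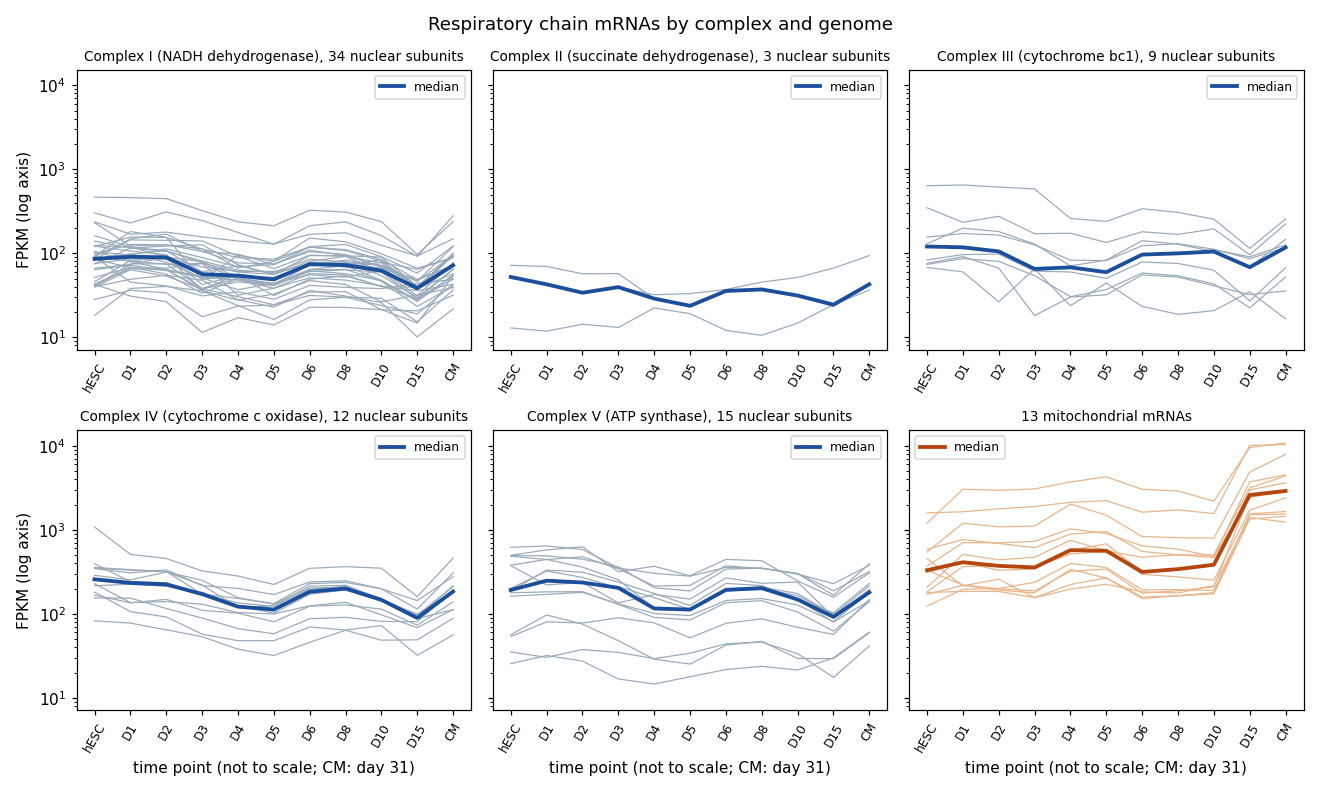
FPKM (log axis) of the nuclear subunits of each complex and of the 13 mitochondrial mRNAs at the 11 time points; thin lines are genes and thick lines their medians. In these deposited values the median of complex IV dips at D5 (112.4 FPKM) and D15 (89.4 FPKM). That of complex II, over 3 genes, is also low there (23.7 and 24.5 FPKM). The sum of these 3 genes was nevertheless higher at D15 (114.6 FPKM) than at D10 (97.8 FPKM). The SDHA line of complex II ends at its highest level, 94.0 FPKM.

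Between cardiomyocytes and hESC, the nuclear subunits differed little as a group. Of 73, 4 were higher and 10 lower by 2-fold, where 18.7% and 16.9% of all genes were, and the median was -0.30; it turned to 0.29 when columns were rescaled to an equal sum of nuclear protein-coding genes, with 8 higher and 4 lower. Relative to the median of all genes it was -0.33 as deposited and -0.13 in that rescaling. With all 82 nuclear entries kept by the name rule, 5 were higher and 13 lower (median -0.28). NDUFA8, SDHC, ATP5D and ATP5J were 2-fold higher, and NDUFB4, UQCR11, COX7A2 and COX7A2L 2-fold lower, under the deposited values and both rescalings.

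The first low stretch began between D1 and D4. At D4, 0 of 73 subunits were 2-fold higher and 26 were 2-fold lower than at D1 (9.19% and 11.9% of all genes), with a median of -0.84. The median stayed below 0 under both rescalings (-0.61 and -0.26), but the count of lower subunits was 12 and 2 there. ATP5G1 and ATP5H were lower by 2-fold in each. At D6, as deposited, 71 of 73 nuclear subunits were above their D5 value, with a median of 0.58 and none past 2-fold (1.21% of all genes were higher by 2-fold). The median subunit was at 83.9 at D6 against 59.3 at D5 under the median ratio, and 85.1 against 68.1 under the nuclear protein-coding sum.

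At D15 the nuclear subunits were low. Against D10, 0 of 73 were 2-fold higher and 11 were 2-fold lower as deposited (9.51% of all genes were lower). In the same values the median was -0.64, and 66 were below their D10 value. Under the rescalings the medians were -0.30 and -0.30, with 1 subunit 2-fold lower and 2 higher in each, so the count rests on the scaling. Among the subunits 2-fold lower, ATP5G2, which encodes a subunit of the rotating c ring, was at 91.9 FPKM at D15 against 238.7 at D10, and was lower under all 3 scalings. NDUFS5, an accessory subunit of complex I with the highest mean of its complex, was at 96.8 FPKM at D15 against 239.1 at D10. In cardiomyocytes against D15, 35 subunits were 2-fold higher and 1 lower as deposited (7.23% and 4.07% of all genes), with a median of 0.99 and 72 of 73 above 0. The rescalings left 8 and 5 subunits 2-fold higher (medians 0.67 and 0.62), and NDUFB1, NDUFB2, NDUFS6, COX6C and COX7C passed in all.

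**Figure D3:**
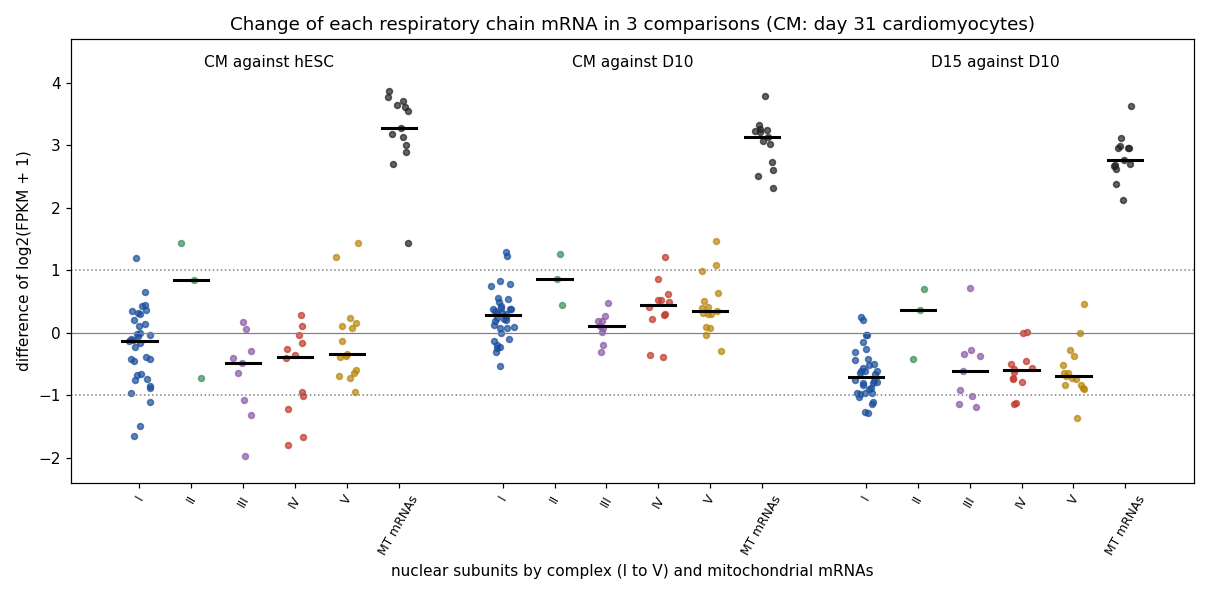
Difference of log2(FPKM + 1) of each nuclear subunit, by complex, and of each mitochondrial mRNA in 3 comparisons; black bars are medians and dotted lines mark 2-fold. Mitochondrial mRNAs lie above 1 in all 3 comparisons (medians 3.27, 3.12 and 2.76), and most nuclear subunits lie within 2-fold.

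The comparison of cardiomyocytes with D10 depended least on the scaling. Of 73 subunits 6 were 2-fold higher and 0 lower (8.14% and 4.61% of all genes), 59 were above their D10 value, and the median was 0.30 (0.32 and 0.27 under the rescalings). The 6 were ATP5D, NDUFS6, SDHC, NDUFC1, COX5A and ATP5J, and each passed under all 3 scalings. The share of 6 in 73 was near that of all genes.

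In complex I, 7 core subunits carry electrons from NADH through flavin and iron-sulphur centres, and 27 accessory subunits surround this core and its membrane arm. In cardiomyocytes against hESC, 1 of 34 was 2-fold higher and 3 lower, with a median of -0.13 (0.47 after rescaling to the nuclear protein-coding sum, with 4 higher and 1 lower). NDUFA8, an accessory subunit of the membrane arm, was listed at 18.2 FPKM in hESC, 38.2 at D1, 40.4 at D2, 35.8 at D3, 23.9 at D4, 16.3 at D5, 27.9 at D6, 30.0 at D8, 23.9 at D10, 19.0 at D15 and 43.0 in cardiomyocytes. It had its lowest values at D5 and in hESC and its highest in cardiomyocytes. NDUFA5, the next largest difference, was at 65.2 FPKM in cardiomyocytes and 41.0 in hESC, within 2-fold. The accessory subunits NDUFB4 (72.7 FPKM in cardiomyocytes, 231.5 in hESC), NDUFS4 (57.3 and 162.7) and NDUFB7 (64.0 and 139.9) were lower. NDUFS5 was at 238.2 FPKM in cardiomyocytes and 466.8 in hESC. None of the 7 core subunits passed 2-fold in cardiomyocytes against D15 (median 0.55), while 17 of the 27 accessory subunits did (median 1.07; 5 and 3 under the rescalings), and the difference between these sets was not tested. NDUFS1, the largest core subunit, was at 53.5 FPKM in cardiomyocytes, 28.5 at D15 and 43.3 in hESC.

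Complex II oxidises succinate and links the chain to the citric acid cycle. Of its 3 measured subunits SDHA and SDHC had their highest values in cardiomyocytes. SDHA, the flavoprotein that binds succinate, was listed at 52.3 FPKM in hESC, 42.8 at D1, 34.0 at D2, 39.6 at D3, 32.1 at D4, 33.2 at D5, 37.1 at D6, 45.5 at D8, 51.6 at D10, 66.8 at D15 and 94.0 in cardiomyocytes. As deposited it went up in each column after D4, D15 included, where 49 of the 73 nuclear subunits were lowest. SDHC, a membrane anchor, was listed at 12.9 FPKM in hESC, 11.9 at D1, 14.3 at D2, 13.1 at D3, 22.4 at D4, 19.1 at D5, 12.1 at D6, 10.6 at D8, 14.8 at D10, 24.5 at D15 and 36.6 in cardiomyocytes. It was 2-fold higher in cardiomyocytes than in hESC (log2 difference 1.43) and than at D10 (1.25). Its exons overlap those of CFAP126 in GENCODE 29. SDHB, the iron-sulphur subunit between them, was at 42.9 FPKM in cardiomyocytes and 72.0 in hESC.

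Complex III passes electrons to cytochrome c. None of its 9 nuclear subunits was 2-fold higher in cardiomyocytes than in hESC and 3 were lower (median -0.49; 0.10 with 1 lower after rescaling to the nuclear protein-coding sum). UQCRH, the acidic hinge protein that aids contact with cytochrome c, was listed at 638 FPKM in hESC, 652 at D1, 615 at D2, 585 at D3, 260.2 at D4, 240.2 at D5, 339 at D6, 307 at D8, 255 at D10, 115 at D15 and 256 in cardiomyocytes. Its promoter is shown above with an ETS motif. It was at 585 FPKM or more from hESC to D3 and below that level in each later column. CYC1, the cytochrome c1 subunit, was at 35.6 FPKM in cardiomyocytes, against 76.0 in hESC, and was lowest at D3 (18.2). UQCR11, the smallest subunit, was listed at 67.9 FPKM in hESC, 60.2 at D1, 26.5 at D2, 65.3 at D3, 23.8 at D4, 44.4 at D5, 23.4 at D6, 18.8 at D8, 20.8 at D10, 34.9 at D15 and 16.6 in cardiomyocytes. These values step back and forth between neighbouring columns, less than those of the 3 entries left out, and its differences (log2 -1.97 in cardiomyocytes against hESC) are uncertain for that reason. UQCRQ (146.6 FPKM in cardiomyocytes, 130.4 in hESC) and UQCRC2 (126.2 and 120.6) were the members with the largest positive differences, and both were within 2-fold.

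Complex IV hands electrons to oxygen, and its nuclear subunits surround the mitochondrial core of MT-CO1 to MT-CO3. Of 12 common subunits 0 were 2-fold higher and 4 lower in cardiomyocytes than in hESC (median -0.39; 0.22 with 2 lower after rescaling to the nuclear protein-coding sum), while the mRNAs of the core were 6.48 (MT-CO1) to 12.2 times (MT-CO2) as high. COX7C, the most abundant nuclear member, was listed at 1079.5 FPKM in hESC, 511 at D1, 456 at D2, 325 at D3, 282 at D4, 224 at D5, 348 at D6, 364 at D8, 349 at D10, 160.1 at D15 and 462 in cardiomyocytes. It was higher in hESC than in any later column, and its cardiomyocyte value exceeded those of D2 to D15. COX7A2L, which joins complexes III and IV into supercomplexes, was at 56.2 FPKM in cardiomyocytes, against 181.5 in hESC. It is counted here among the 12 subunits, the 4 lower ones and the 2 still lower after rescaling. NDUFA4, once assigned to complex I, was at 112.6 FPKM in cardiomyocytes, against 228.1 in hESC. COX5A was listed at 155 FPKM in hESC, 154 at D1, 116 at D2, 89.2 at D3, 66.7 at D4, 57.9 at D5, 87.4 at D6, 90.9 at D8, 81.2 at D10, 80.8 at D15 and 189 in cardiomyocytes. It was 2-fold higher in cardiomyocytes than at D10 (1.21 on the log2 scale) and within 2-fold of hESC (0.29), and COX7B was next (88.4 FPKM in cardiomyocytes, 82.5 in hESC). COX4I1 was at 277.4 FPKM in cardiomyocytes and 356.5 in hESC.

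Complex V has a soluble F1 head, a rotating c ring and a peripheral stalk. Of 15 nuclear subunits 2 were 2-fold higher and 0 lower in cardiomyocytes than in hESC (median -0.35; 0.25 after rescaling to the nuclear protein-coding sum, with the same counts). ATP5J, coupling factor 6 of the peripheral stalk, was listed at 53.6 FPKM in hESC, 80.4 at D1, 77.7 at D2, 89.7 at D3, 78.1 at D4, 51.8 at D5, 77.1 at D6, 87.2 at D8, 69.1 at D10, 56.8 at D15 and 147 in cardiomyocytes. ATP5D, the delta subunit of the central stalk, was listed at 25.6 FPKM in hESC, 31.9 at D1, 27.4 at D2, 16.8 at D3, 14.6 at D4, 17.9 at D5, 21.7 at D6, 23.7 at D8, 21.4 at D10, 29.9 at D15 and 60.7 in cardiomyocytes. Both had their highest value in cardiomyocytes. ATP5J shares exon positions with GABPA and JAM2 in GENCODE 29, so some of its reads may belong to them. The catalytic ATP5B was at 378.4 FPKM in cardiomyocytes, against 493.4 in hESC, and ATP5I, a membrane subunit with the highest mean of the complex, at 393.5 against 618.7. ATP5H of the peripheral stalk (229.6 FPKM in cardiomyocytes, 379.8 in hESC) and ATP5G2 (194.3 and 374.8) were the lowest relative to hESC. The genes ATP5G1, ATP5G2 and ATP5G3 encode the same mature c subunit with different import sequences. ATP5G3 held 45.9% of their summed FPKM in cardiomyocytes and 31.8% in hESC, ATP5G2 41.4% and 59.3%, and ATP5G1 12.7% and 8.94%. These shares moved back and forth in between, and those of cardiomyocytes lay within the range of the earlier columns. At D1 ATP5G3 held 50.5% and ATP5G2 34.4%, and at D4 they held 36.7% and 54.1%.

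Of the muscle isoforms, COX6A2 was detected late and COX7A1 hardly at all. COX6A2 was listed at 0.187 FPKM in hESC, 0.0777 at D1, 0.0342 at D2, 0.0381 at D3, 0.0457 at D4, 0.253 at D5, 0 at D6, 0 at D8, 1.30 at D10, 1.43 at D15 and 19.9 in cardiomyocytes. It was 19.9 FPKM in cardiomyocytes and at most 1.43 in the other columns, with a log2 difference of 4.14 from hESC and 3.18 from D10. The hESC level lies below the pseudocount of 1, which holds the first difference down, and with a pseudocount of 0.1 it was 6.12. Its common partner COX6A1 was at 179.9 FPKM in cardiomyocytes, 148.1 at D10 and 350.6 in hESC, so COX6A2 made up 9.94% of the pair in cardiomyocytes, 0.869% at D10 and 0.0534% in hESC. COX7A1 was listed at 0.313 FPKM in hESC, 0.159 at D1, 0.414 at D2, 0.373 at D3, 0.358 at D4, 1.18 at D5, 0.296 at D6, 0.316 at D8, 0.389 at D10, 0.767 at D15 and 1.03 in cardiomyocytes. Its highest value was at D5, and in cardiomyocytes it made up 0.905% of its sum with COX7A2, which was at 112.3 FPKM in cardiomyocytes and 394.3 in hESC. COX7A2 differed from its hESC level by -1.80 on the log2 scale.

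**Figure D4:**
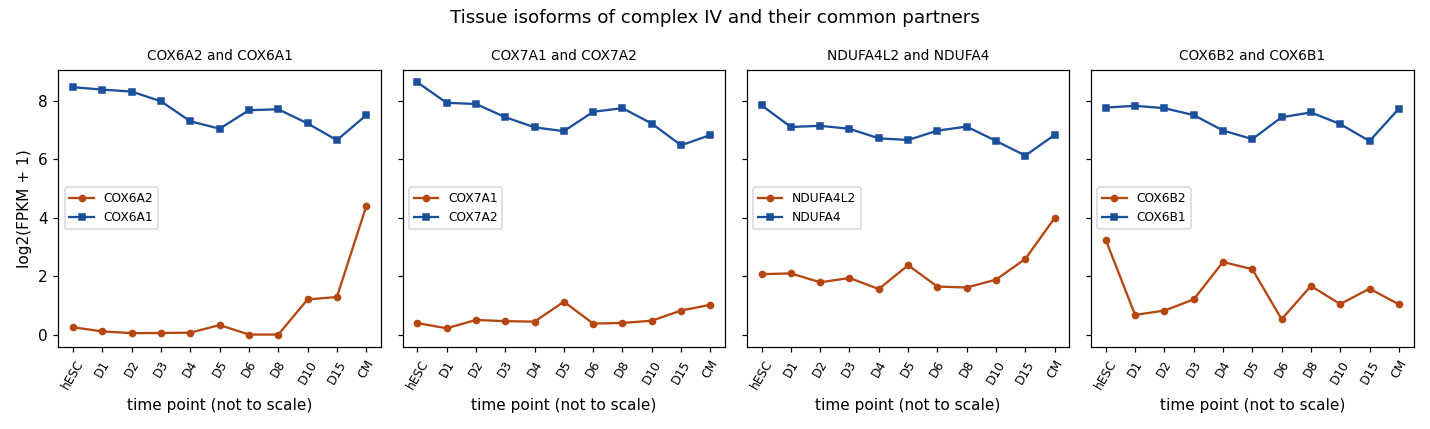
Levels, as log2(FPKM + 1), of 4 tissue isoforms of complex IV (circles) and their common partners (squares) at the 11 time points. COX6A2 (19.9 FPKM) and NDUFA4L2 (14.8 FPKM) are highest in cardiomyocytes, COX7A1 stays near 1 FPKM or below, and each isoform lies under its partner in every column.

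Of the other tissue isoforms, NDUFA4L2, a paralog of NDUFA4 induced by hypoxia in other cells, was at 14.8 FPKM in cardiomyocytes and 5.01 at D15, against 2.67 at D10 and 3.18 in hESC. Its exons overlap those of SHMT2. COX6B2, known from testis, was highest in hESC (8.41 FPKM) and at D4 (4.58), and was at 1.05 in cardiomyocytes. COX4I2, known from lung, did not exceed 1.14 FPKM in any column, next to 132.3 FPKM or more of COX4I1. COX7B2 and COX8C stayed below 1 FPKM in each column.

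In the sorts, the authors tested the populations themselves, and only genes with a q-value under 0.05 are listed in the deposited form used here. Separate cultures for the 2 libraries of a population are not stated in the labels, so these q-values may measure technical spread. A gene missing from the list cannot be read as equal. At D4, the authors' deposited table listed 20 of the 73 nuclear subunits, 19 of them higher in CMESO than in the PDGFRa-negative cells, whereas 47.5% of all 4825 listed genes were higher. It listed 9 of the 13 mitochondrial mRNAs, 8 of them lower in CMESO. The listed genes were 40.9% of the tests estimated from the p-values and q-values. All 29 listed members differed by less than 2-fold.

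The nuclear subunits higher in CMESO came from complexes I, IV and V. NDUFA6 (chr22:42475695-42535938, hg19), an accessory subunit of complex I, was at 96.3 FPKM in CMESO and 59.4 in PDGFRa-negative cells in the authors' deposited table (log2 fold change 0.70, q = 0.000269). That position is a stretch of 60.2 kb, and those given for NDUFA12 (107 kb), COX8A (191.5 kb) and NDUFB2 (204 kb) are longer still, which leaves room for neighbouring genes, and how reads there were divided among genes is not given in the sources used here. NDUFA11, NDUFA12 and NDUFA1, further accessory subunits, had log2 fold changes of 0.60, 0.58 and 0.58 in the authors' deposited table. COX8A led complex IV with 165.4 FPKM in CMESO against 111.9 (log2 fold change 0.56, q = 0.00753), and ATP5C1, the central shaft of the F1 head, led complex V with 185.2 against 134.6 (0.46, q = 0.000513), per the authors' deposited table. SDHC was the only nuclear subunit listed as lower in CMESO there, at 26.5 FPKM against 33.6 (-0.34, q = 0.0218).

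Among the mitochondrial mRNAs, MT-ND1 (chrM:3307-4262) was at 354.2 FPKM in CMESO and 678.6 in PDGFRa-negative cells in the authors' deposited table (log2 fold change -0.94, q = 0.000269). MT-CO2 was at 1021 FPKM in CMESO against 1706 (-0.74), and MT-CO1 at 2180 against 3180 (-0.54), in the authors' deposited table. MT-ND2, MT-CYB, MT-ND4, MT-ND3 and MT-CO3 were lower by log2 fold changes of -0.55 to -0.36 there. In that table the entry MT-CO3 spans the positions of MT-ATP8 and MT-ATP6, and the entry MT-ND4 that of MT-ND4L, and how reads were divided among them is not given either. MT-ND6 alone was listed as higher in CMESO, at 242.4 FPKM against 189.5 (0.36, q = 0.00515) in the authors' deposited table. The ribosomal MT-RNR1 was listed there as lower in CMESO too, at 18713 FPKM against 26053 (q = 0.0275), and its part in the difference was not tested.

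**Figure D5:**
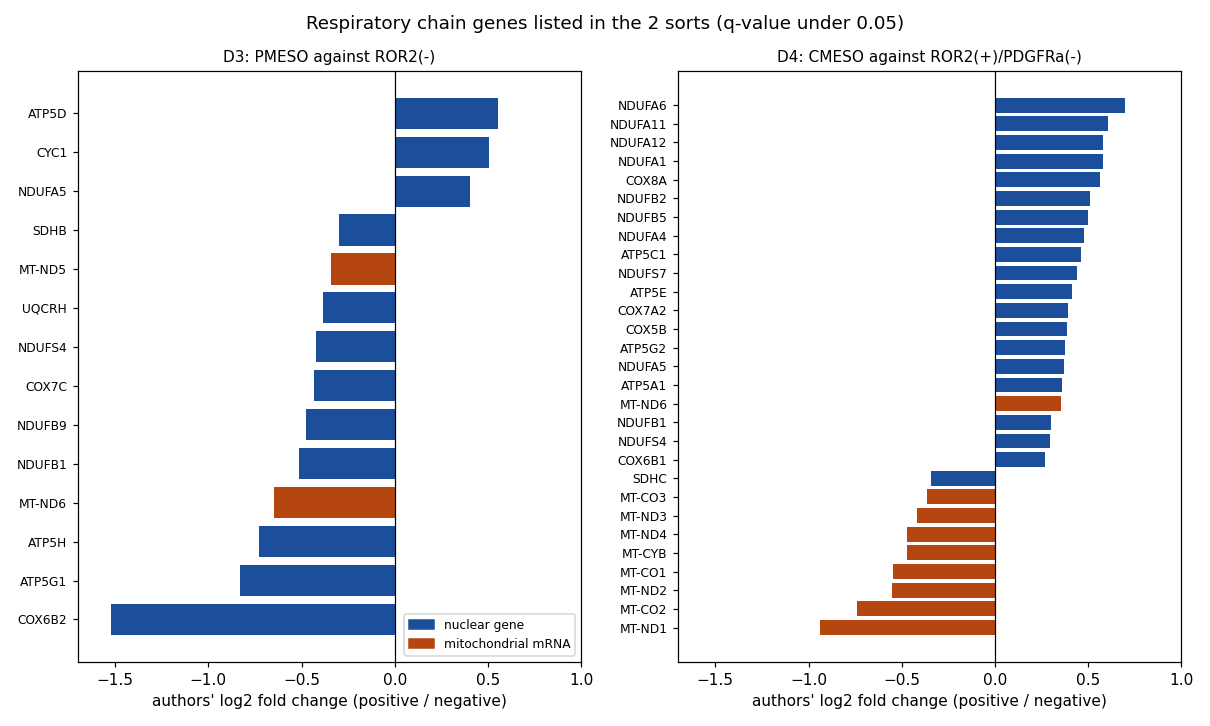
The authors' log2 fold changes (positive over negative population) of the respiratory chain genes listed at a q-value under 0.05 in the D3 sort (14 genes) and the D4 sort (29 genes), nuclear genes in blue and mitochondrial mRNAs in orange. At D4, 19 of 20 nuclear subunits lie to the right of 0 and 8 of 9 mitochondrial mRNAs to the left.

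At D3 the pattern was mixed. The authors' deposited table listed 11 of 73 nuclear subunits, 3 higher and 8 lower in PMESO than in ROR2-negative cells, while 55.2% of the 4648 listed genes were higher and listed genes were 28.7% of the estimated tests. ATP5D (20.6 FPKM in PMESO, 14.0 in ROR2-negative cells), CYC1 (22.4 and 15.8) and NDUFA5 (37.1 and 28.1) were higher in the authors' deposited table. ATP5G1 was at 15.5 FPKM in PMESO and 27.7 in ROR2-negative cells (log2 fold change -0.83, q = 0.000375), and ATP5H at 158.8 and 262.9 (-0.73, q = 0.000375), in the authors' deposited table. The other nuclear subunits listed as lower there were NDUFB1, NDUFB9, COX7C, NDUFS4, UQCRH and SDHB, with log2 fold changes of -0.51 to -0.30. The position given for NDUFB9 is a stretch of 240 kb, which leaves room for neighbouring genes, and its exons overlap those of MTSS1 and TATDN1 in GENCODE 29. COX6B2 had the largest difference of any listed member, at 1.62 FPKM in PMESO and 4.66 in ROR2-negative cells (-1.52, q = 0.00704). MT-ND6 (187.5 FPKM in PMESO, 293.9 in ROR2-negative cells) and MT-ND5 (164.8 and 208.9) were the mitochondrial mRNAs listed, both lower in PMESO in the authors' deposited table. MT-ND6, NDUFA5, NDUFB1 and NDUFS4 were listed in both sorts (28.57% of the 14 and 13.79% of the 29), and COX6A2 and COX7A1 in neither. How many of all listed genes were in both sorts was not counted, so this overlap cannot be called large or small. NDUFA5 was higher in the positive population of both sorts. MT-ND6, NDUFB1 and NDUFS4 were lower in PMESO at D3 and higher in CMESO at D4 in the authors' deposited table.

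Genes that build or serve the chain were looked at beside its subunits. Of 42 measured assembly factors, which help to put the complexes together, 3 were 2-fold higher and 7 lower in cardiomyocytes than in hESC, with a median of -0.11. In this comparison 18.7% of all genes were higher and 16.9% lower. After rescaling to the nuclear protein-coding sum the median of the assembly factors was 0.46, with 10 higher and 2 lower. NDUFAF3, a complex I assembly factor, was at 35.2 FPKM in cardiomyocytes against 10.3 in hESC, and COX16, which acts in complex IV assembly, at 14.5 against 56.2. Of 20 genes that copy, transcribe or process mitochondrial DNA and RNA, 1 was higher and 4 lower (median -0.49; 0.051 with 3 higher and 2 lower in that rescaling). At D15, when the mitochondrial mRNAs were high, 0 of these 20 were 2-fold higher and 5 lower than at D10 (6.32% and 9.51% of all genes). Their median was -0.73, and -0.42 with 3 lower under both rescalings. TFAM, which packages mitochondrial DNA and starts its transcription, was listed at 40.5 FPKM in hESC, 116 at D1, 106 at D2, 74.0 at D3, 46.9 at D4, 44.0 at D5, 55.2 at D6, 40.7 at D8, 33.7 at D10, 9.62 at D15 and 27.0 in cardiomyocytes. It was highest at D1 and lowest at D15. POLRMT, the mitochondrial RNA polymerase, was at 12.0 FPKM in cardiomyocytes, 16.8 at D15 and 19.0 at D10, and MTERFD3, a member of the mitochondrial terminator family, at 37.0 in cardiomyocytes and 14.9 at D10.

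Of 11 carriers and exchange proteins, 2 were 2-fold higher and 2 lower in cardiomyocytes than in hESC (18.7% and 16.9% of all genes). Their median was -0.42, and 0.18 with 3 higher and 1 lower after rescaling to the nuclear protein-coding sum. SLC25A4, the ADP/ATP carrier of heart and muscle, was at 176.1 FPKM in cardiomyocytes, 58.8 at D10 and 42.4 in hESC, while SLC25A5, the carrier of dividing cells, was at 233.5, 163.6 and 460.4 FPKM in the same columns. CKMT2, the mitochondrial creatine kinase of muscle, was at 20.5 FPKM in cardiomyocytes against 1.25 in hESC. CYCS, cytochrome c itself, was at 106.3 FPKM in cardiomyocytes and 109.3 in hESC, after 273.7 at D1.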

How the data were processed

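RNA was sequenced as read pairs of 100 nt from rRNA-depleted libraries, 2 per group. Per the submitters' processing notes, TopHat2 2.0.8b, Bowtie2 2.1.0.0, Cufflinks (no version) and the build hg19 were used; the sources used here give no annotation, strand setting or scaling between columns. The authors deposited 1 value per gene and time point, whose unit, FPKM, was inferred from the pipeline and the values, and in the sort tables, per the file headers, 1 value per population (FPKM, from the Cuffdiff layout of the columns), the q-value and p-value of the authors' test, its score, the log2 fold change and the linear ratio; the sort tables were normalized apart. Depth is not given. Values below 0.15 FPKM stood most often at 1.87 times their D1 value at D15, in 25.2% of 1023 genes, and at 1.62 times in hESC, in 19.3% of 2232.

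With libraries pooled in the deposited values, the time course was described without tests, on log2(FPKM + 1), for genes at 1 FPKM or more in at least 1 column. Python 3.11.15, pandas 2.3.3 and numpy 2.4.6 were used. GENCODE 29 (GRCh38) served for gene types, pseudogene names and exon overlaps. Of the 73 nuclear subunits 42 have a pseudogene of their name and 40 share exon positions with another gene. Alternatives were another pseudocount, other filters, 2 rescalings, other end columns and stricter sort calls. Members, gene lists and named genes were chosen with earlier results of these data known. Named genes were the isoform pairs, the 13 mitochondrial mRNAs, in each complex the 2 largest increases and decreases between cardiomyocytes and hESC and the highest mean, members listed at 0, and members listed in a sort; ATP5B, COX4I1, NDUFS1 and genes of the other lists were picked after their values were seen.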

Additional observations from a re-analysis of the deposited data

How the results depend on the processing

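No paired analysis was possible because the 2 libraries of a group are not given apart, and for the same reason no replicate could be left out. Of the time-course results, the 2-fold counts for the 82 nuclear entries in cardiomyocytes against hESC (5 higher, 13 lower) became 2 and 8 of the 40 entries left without those that have a pseudogene of their name (median -0.27, against -0.28). They became 0 higher and 16 lower with D10 in place of cardiomyocytes (median -0.66), and 0 higher and 50 lower with D15 (median -1.18), the last chosen after seeing the data. Rescaling to the same sum of nuclear protein-coding genes, also added later, gave 11 higher and 5 lower and turned the median of -0.28 to 0.32. The median of D15 against D10 (-0.62) was -0.28 under either rescaling. That of cardiomyocytes against D15 (0.93) was 0.61 under the median ratio and 0.57 under the protein-coding sum. For the mitochondrial mRNAs, the median of cardiomyocytes against hESC (3.27) was 3.87 under the protein-coding sum, 2.71 with D1 in place of hESC and 0.30 with D10 in place of cardiomyocytes. With a pseudocount of 0.1, COX6A2 differed by 6.12 in place of 4.14 and COX7A1 by 1.45 in place of 0.63. In the sorts, a 2-fold difference as well left 1 of 14 members at D3 and 0 of 29 at D4, while a q-value under 0.01 left 10 and 20. A filter on the mean, no filter, and leaving out isoforms and entries that are not subunits moved no result by more than 1.5 times or 0.25. Other causes of these differences were not tested.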

Other observations

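Across the 11 columns, the log2 profile of 51 of the 73 nuclear subunits had a Pearson r of 0.8 or more with the median profile of the nuclear subunits, which contains them (ATP5L 0.995). SDHC (-0.48) was 1 of 2 subunits below 0, SDHA being the other (-0.06). All 13 mitochondrial mRNAs were below 0, between -0.58 (MT-ND1) and -0.27. The columns share their scaling and are not independent, so these values only describe the table. The antisense entry NDUFA6-AS1 was at 5.12 FPKM in cardiomyocytes and 4.86 at D15, against 3.19 in hESC, where NDUFA6 itself was at 74.4, 37.8 and 75.1 FPKM. NDUFA6-AS1 was highest at D4 as deposited and under the nuclear protein-coding sum, and at D15 under the median ratio. The related gene ATP5SL, which is not a subunit, was at 21.5 FPKM in cardiomyocytes and 34.3 in hESC.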
